A study of Mus musculus with 30 samples.

Results

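Cerebellar gene expression was compared between 6 SCA7 knock-in (KI) mice and 5 wild-type (WT) mice at week 11, taken by their titles from the 30 mice of the series. All 11 were females killed by cervical dislocation, and each cerebellum was measured on its own 2-colour Agilent array. RNA of the mouse carried Cy5, and every array also carried Cy3-labelled RNA pooled from the P10 mice of both genotypes, with no dye swap. The labels give the KI mice as SCA7 KI and the controls as wild-type. The allele, the repeat length and the background strain are not given in the sources used here. Younger mice, of which 4 KI and 5 WT mice were taken at P22 and 5 of each genotype at P10, entered only to show how a difference stood at an earlier age, and they had been decapitated.

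Spinocerebellar ataxia type 7 is an inherited disease of the cerebellum, brainstem and retina caused by a lengthened CAG repeat in ATXN7. Its protein, ataxin-7, is a subunit of SAGA, a complex that acetylates and deubiquitinates histones at promoters. In the cerebellum, Purkinje cells are the only output of the cortex, and granule neurons and Bergmann glia surround them. The interferon response, to which many of the genes below belong, starts when interferons bind their receptors. A protein complex that contains IRF9 then binds a DNA element in the promoters of antiviral genes and antigen presentation genes.

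All levels below are log2 ratios of the mouse to the P10 pool, and all differences are KI minus WT on that log2 scale, so that 1 stands for a 2-fold difference. The error after ± is the standard error of the limma fit for a difference and the SD over mice for a mean. Levels are written in the order KI 15, 16, 19, 21, 22, 34 and WT 18, 20, 23, 32, 33, which are the mouse numbers of the titles. A gene was called where its adjusted p (Benjamini-Hochberg over all probes tested) was under 0.05. The median spot signal in Cy5 ran from 135 to 475 over the 11 arrays, and Cy5 was well above background for 68.6% to 89.7% of the spots. The label of female sex was borne out as far as these probes go, since Xist was above background in all 11 mice and the Y-linked Kdm5d in 0.

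Mouse KI 21 and mouse WT 20 stood furthest of their groups on the opposite side of the genotype difference from their labels. Each mouse was placed on a scale from the mean of the other WT mice, at 0, to the mean of the other KI mice, at 1, over the 200 probes with the smallest p in a fit that left that mouse out. KI 21 lay at -0.18 and WT 20 at 0.96. The other KI mice lay between 0.32 and 0.99 and the other WT mice between 0.23 and 0.67, so the groups overlapped even without these mice. KI 34 at 0.32, KI 19 at 0.37 and WT 18 at 0.67 were also past the middle of the scale, nearer the opposite group. When neither mouse took part in setting the scale, KI 21 lay at 0.06 and WT 20 at 0.88, the other KI mice at 0.57 to 1.05 and the other WT mice at 0.03 to 0.44.

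**Figure D1:**
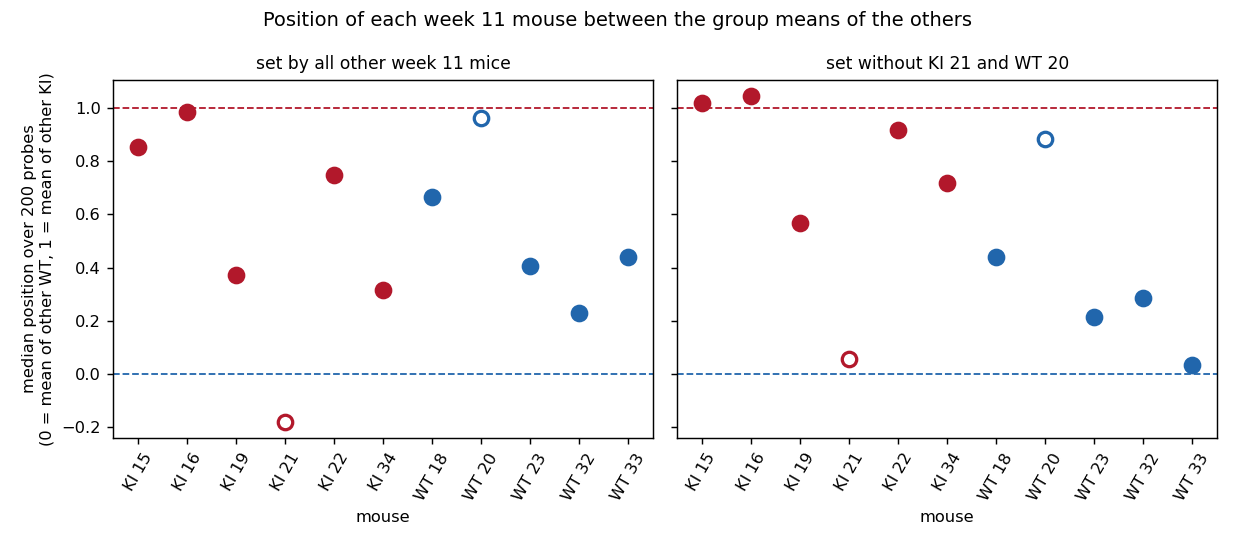
Median position of each week 11 mouse (vertical axis, no unit: 0 is the mean of the other WT mice and 1 that of the other KI mice) over 200 probes chosen without that mouse, with the scale set by all other mice (left) or without KI 21 and WT 20 (right). Red marks KI and blue WT, and the open circles, KI 21 at -0.18 and WT 20 at 0.96 on the left, each lie on the side of the opposite label. On the left KI 19, KI 34 and WT 18 also lie past the middle.

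Both mice were hybridised on slide 6, which also held KI 19 and WT 18. With the scale set by all other mice, every week 11 mouse of slide 6 lay nearer the opposite group. KI 21 further had the lowest median Cy5 signal of the 11 arrays, and its log2 ratios correlated with those of the other mice at 0.62 to 0.78, against 0.74 to 0.89 for WT 20. Why they stood apart was not tested. The comparison therefore keeps all 11 mice under their labels, and many results are also given without KI 21 and WT 20, which leaves 5 KI and 4 WT mice. Since these mice were set aside because of their values, the p-values without them are too small and the differences too large to count as independent support. Slides 5 and 7, which hold KI 22 with WT 23 and KI 34 with WT 32 and WT 33, are given on their own for some results. This also leaves out KI 21 and WT 20, so it repeats that choice and gives no independent support. KI 15 and KI 16 shared slide 4, on which there was no WT mouse of this age.

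With all 11 mice, 0 of 35183 probes were called (0%), and the smallest adjusted p was 0.23. At an unadjusted p under 0.05 there were 755 probes higher in KI (2.15%) and 1009 lower (2.87%), together 5.01% of those tested. Without KI 21 and WT 20, 147 of 34781 probes (0.423%) were called, 62 higher in KI (0.178%) and 85 lower (0.244%), and 8.55% had an unadjusted p under 0.05 (3.47% higher and 5.08% lower). The count was 16 without KI 21 alone, 9 without WT 20 alone and 1 without WT 23 alone. Leaving out any of the other 8 mice gave 0. An alternative that kept every mouse but weighted each array by how close it lay to its group gave 74 calls (0.210%), 33 higher and 41 lower. Its weights ran from 0.38 for KI 21 and 0.39 for KI 19 to 2.54 for KI 15, while WT 20 kept 1.14. These weights come from the same values as the differences. Of its 74 calls 38 were among the 147, which is 51.4% of the smaller set and 25.9% of the larger. Blocking on slide gave 0 calls and a smallest adjusted p of 0.0509, and blocking on the day of scanning gave 0 calls and 0.129.

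**Figure D2:**
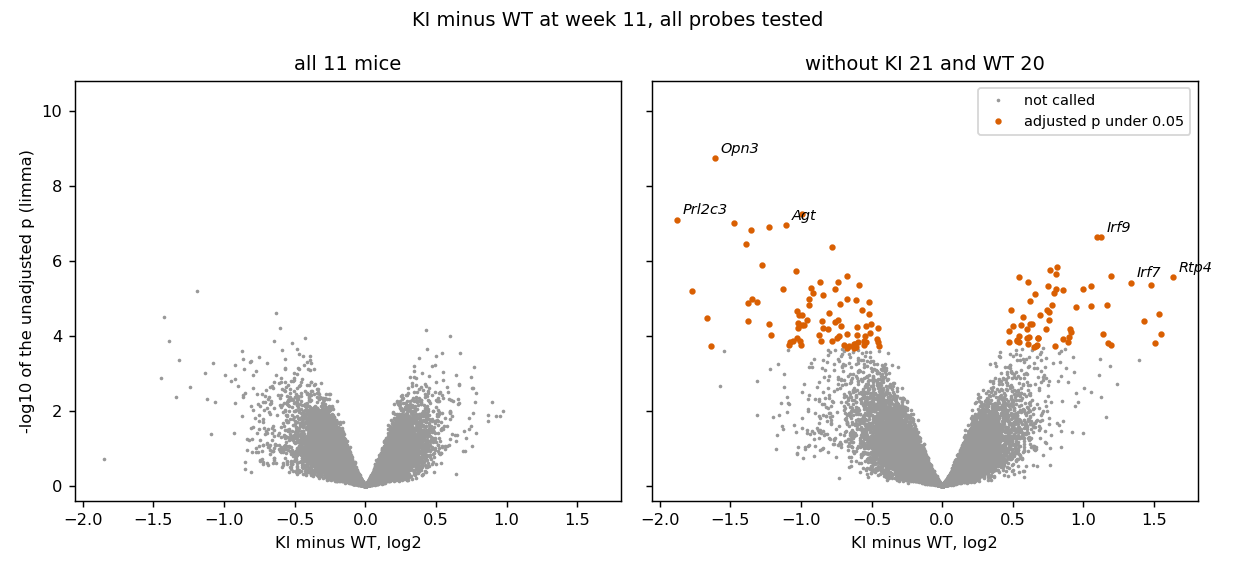
Each dot is a probe: the KI minus WT difference at week 11 (horizontal axis, log2) against -log10 of the unadjusted limma p (vertical axis), with all 11 mice (left) and without KI 21 and WT 20 (right). Orange marks an adjusted p under 0.05, which 0 probes reached on the left and 147 on the right.

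The 147 probes carried 122 named genes, 48 higher and 74 lower in KI, with a median absolute difference of 0.80 (range 0.45 to 1.88). All 122 differed in the same direction when every mouse was kept, and 108 of them then had an unadjusted p under 0.05 (5.01% of all probes had). The mice by which these genes were chosen make up most of that comparison. Both counts were thus largely fixed by the choice and give no independent support. The mice of slide 5 kept the direction for 117 of these genes and those of slide 7 for 121, against 66 on slide 6, but the mice of slides 5 and 7 had taken part in choosing the genes.

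Of the 48 higher genes, 10 belonged to the interferon response list, on the probe with the smallest p of each gene. The element that the complex with IRF9 binds is shown in the promoters of 3 interferon-induced genes from the RefSeq table (build GRCm38.p6). Ifit1 is on the list and among the 48, Irgm1 is among the 48 but not on the list, and Isg15 is on the list but was not called. Each is the 110 bases just before the annotated start, 5′ to 3′ in the direction of the gene. Capitals mark GAAANNGAAA on either strand, with overlapping matches merged.
Ifit1, chr19:34640779-34640888, plus strand: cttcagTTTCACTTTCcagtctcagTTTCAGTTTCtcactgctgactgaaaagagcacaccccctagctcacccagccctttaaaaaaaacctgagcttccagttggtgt
Isg15, chr4:156200819-156200928, minus strand: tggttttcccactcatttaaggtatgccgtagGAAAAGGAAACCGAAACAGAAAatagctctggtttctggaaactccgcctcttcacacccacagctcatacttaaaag
Irgm1, chr11:48871421-48871530, minus strand: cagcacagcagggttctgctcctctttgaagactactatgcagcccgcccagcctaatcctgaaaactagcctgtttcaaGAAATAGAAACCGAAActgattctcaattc
The Ifit1 window held 2 matches, Isg15 3 overlapping ones and Irgm1 2 overlapping ones. Over the full window of the table, which runs from before to just after the start, 1079 of 27025 genes (3.99%) held a match. Of the 29 genes of the interferon response list, 24 had a promoter in the table and 13 of these (54.2%) a match. Among the genes called without KI 21 and WT 20, 32 of the 48 higher and 55 of the 74 lower genes had a promoter. A match was found in 10 of the higher ones (31.2%), Irgm1, Eif2ak2 and Ifih1 among them, and in 0 of the lower ones. A match is only a run of letters, and binding was not measured.

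Atxn7, the targeted gene, was read by 1 probe, at bases 11922707 to 11922766 of chromosome 14 in build mm7. Whether this probe reads the knock-in transcript as it does the wild-type one is not known here. Its log2 ratios were 0.92, 0.72, 0.47, -0.01, 1.05 and 0.50 in the KI mice and 0.97, 0.81, 1.13, 0.26 and 0.66 in the WT mice, so that the groups overlapped throughout. The means were 0.61 ± 0.38 (SD, n = 6) and 0.76 ± 0.33 (SD, n = 5), a difference of -0.16 ± 0.19 with an exact two-sided permutation p of 0.491 over 462 arrangements. The smallest p this design allows is 0.00216. Without KI 21 and WT 20 the difference was -0.02 ± 0.20, with an exact permutation p of 0.913 where 0.00794 is the smallest possible, and with array weights it turned to 0.06. Within slides 5, 6 and 7 it was -0.07, -0.66 and 0.04. At P22 and P10 the differences were -0.56 and -0.26. The Atxn7 level therefore gave no check of the genotype of single mice.

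Of the genes within 20 places on either side of Atxn7 in the reference order, 10 were tested. Their differences ran from -0.60 to 0.30 with a median of -0.08, 4 were higher in KI, and 0 were called with or without KI 21 and WT 20. Ptprg, a receptor tyrosine phosphatase, was the lowest of them at -0.60 (limma adjusted p 0.955), and at -0.93 without both mice (adjusted p 0.0857). The 20 SAGA subunits tested had a median of 0.03, 12 of them higher in KI (45.4% of all genes were), and 0 were called in either analysis. Taf10, a subunit that SAGA shares with TFIID, had the smallest p of them, at -0.21 ± 0.10 (unadjusted p 0.0476, limma adjusted p 0.986). Supt3, of the core of the complex, and Eny2, of its deubiquitinating part, were -0.29 ± 0.16 and 0.28 ± 0.16 (limma adjusted p 0.999 and 0.999), and with slide blocked Supt3 was -0.11. The median of this list was -0.02 without KI 21 and WT 20, close to that of all genes in both analyses, -0.02 and -0.03.

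Genes of the interferon response were higher in most KI mice and in WT 20. Of the 29 genes of this list, each read on its brightest probe, 28 were higher in KI with all mice, against 45.4% of the 19159 genes tested. The median difference was 0.39 (-0.02 over all genes), and 9 had an unadjusted p under 0.05, all higher, where 1.85% of genes had. None was called with all mice. Without KI 21 and WT 20, 28 were again higher (42.9% of genes) and the median was 0.64. There 24 had an unadjusted p under 0.05 (3.14% of genes, higher) and 9 were called higher (0.238% of genes). On slides 5 and 7 alone 25 of the 29 were higher in KI on both slides, against 23.5% of genes, with medians of 0.77 and 0.43. On slide 6 the median was -0.07. The median stayed above 0 under each of the 12 other processing settings tried, not counting those that leave out 1 mouse, from 0.34 with slide as a block to 0.64 without KI 21 and WT 20.

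**Figure D3:**
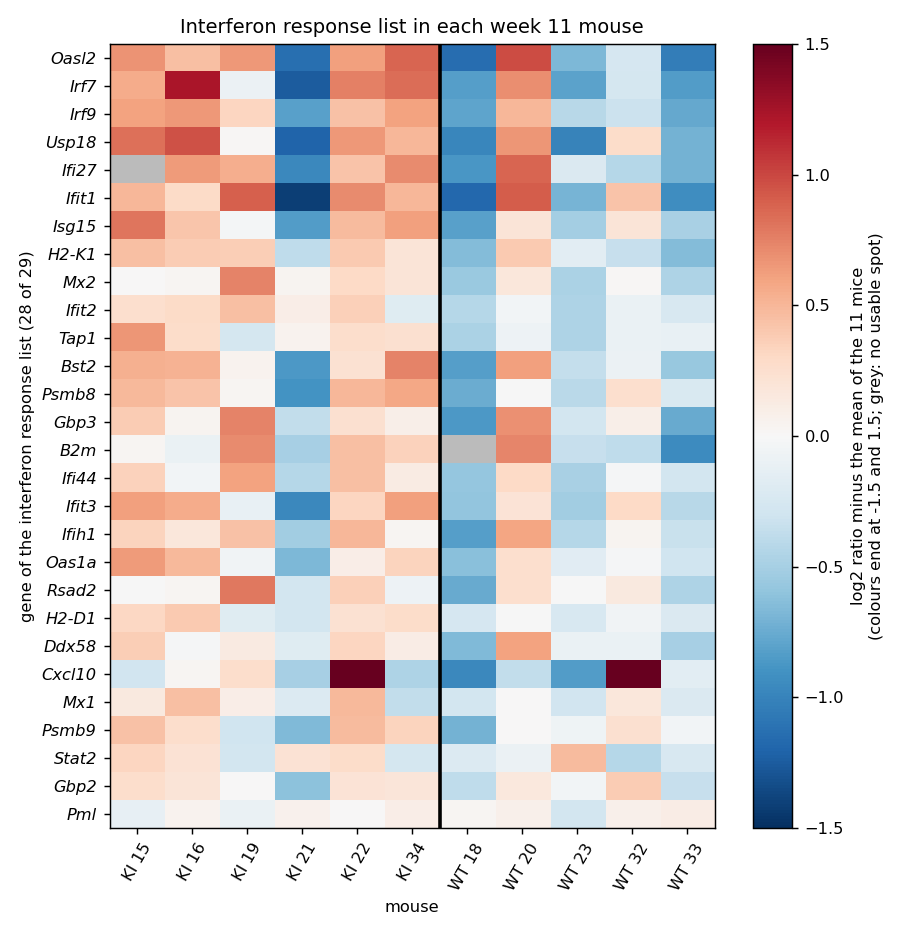
Log2 ratio of 28 of the 29 genes of the interferon response list (rows, ordered by the difference with all mice) in each week 11 mouse (columns), with the mean over the 11 mice taken off; the black line parts KI from WT and grey marks a spot that was not usable. KI 21 is low for most rows and WT 20 high, and WT 18, 23 and 33 are low for most rows.

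The transcription factors of the pathway differed in the same mice. Irf9, the DNA-binding part of the interferon complex, had log2 ratios of 1.28, 1.45, 0.68, 0.01, 1.37 and 1.23 in the KI mice and -0.02, 0.96, -0.22, 0.33 and 0.23 in the WT mice. All KI mice but KI 21 were above all WT mice but WT 20, although KI 19, at 0.68, lay below WT 20. The difference was 0.75 ± 0.21 with all mice (limma adjusted p 0.724), 1.12 ± 0.16 without KI 21 and WT 20 (adjusted p 0.000897), 0.90 with array weights (adjusted p 0.0288) and 0.60 with slide as a block (adjusted p 0.539). Irf7, which drives the later wave of interferon production, stood at 1.85, 2.51, 1.20, 0.04, 2.05 and 2.13 in KI and 0.46, 1.98, 0.49, 1.03 and 0.46 in WT. Its difference was 0.75 ± 0.32 with all mice and 1.34 ± 0.23 without both (limma adjusted p 0.955 and 0.00547).

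Sensors and effectors of antiviral defence followed. Rtp4, an interferon-induced chaperone of receptors, had 1.78, 1.67, 1.84, -0.26, 1.69 and 1.67 in KI and -0.49, 1.82, 0.05, 0.84 and -0.01 in WT, so that 5 KI mice lay between 1.67 and 1.84 while KI 21 lay below 0 and WT 20 at 1.82. The Rtp4 difference was 0.96 ± 0.36 with all mice (limma adjusted p 0.899) and 1.63 ± 0.27 without both (adjusted p 0.00476). Irgm1, an interferon-induced GTPase, was at 1.59, 1.34, 0.73, -0.23, 1.19 and 1.23 in KI and -0.07, 0.85, -0.33, 0.58 and -0.10 in WT. It differed by 0.79 ± 0.25 with all mice, 1.19 ± 0.20 without both (limma adjusted p 0.00476) and 0.97 with array weights (adjusted p 0.0441). Eif2ak2, the RNA-activated kinase PKR that halts translation, differed by 0.44 ± 0.17 and by 0.76 ± 0.12 without both (limma adjusted p 0.899 and 0.00421). Oasl2, of the oligoadenylate synthetase family, was 0.78 ± 0.36 with all mice, 1.43 ± 0.29 without both and 0.62 with slide blocked (limma adjusted p 0.974, 0.0197 and 0.773). Usp18, which removes ISG15 from proteins, was 0.64 ± 0.33, 1.19 ± 0.27 and 0.37 in the same order (limma adjusted p 0.986, 0.0453 and 0.867). The RNA sensors Ifih1 and Ddx58 were at 0.35 ± 0.19 and 0.34 ± 0.11 with all mice and at 0.68 ± 0.15 and 0.47 ± 0.11 without both (limma adjusted p without both 0.0362 and 0.0404). Ifit1, which binds foreign RNA, ran from 0.75 in KI 21 to 3.06 in KI 19 and from 0.99 in WT 18 to 3.08 in WT 20, and WT 32 was at 2.60. Its difference was 0.54 ± 0.35 with all mice and 1.17 ± 0.26 without both (limma adjusted p 0.999 and 0.0415). Ifi27, which has a close copy on the array, was 0.76 ± 0.43 with all mice, 1.55 ± 0.34 without both, 1.08 with array weights and 0.53 with slide blocked (limma adjusted p 0.999, 0.0324, 0.193 and 0.867). Isg15, a ubiquitin-like modifier, was not called in either analysis, at 0.52 ± 0.33 with all mice and 0.86 ± 0.34 without both (limma adjusted p 0.999 and 0.445).

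H2-K1, a class I major histocompatibility molecule, had 2.10, 2.03, 2.02, 1.27, 2.04 and 1.84 in KI and 1.00, 2.04, 1.49, 1.30 and 1.00 in WT, so that 5 KI mice and WT 20 were all at 1.84 or above while the other 4 WT mice and KI 21 were at 1.49 or below. Its difference was 0.52 ± 0.16 with all mice (limma adjusted p 0.836) and 0.81 ± 0.13 without both (adjusted p 0.00377). Class I genes resemble each other, and probes of this family may read more than 1 gene. Tap1, the peptide transporter that feeds class I molecules, was lowest in KI 19 among the KI mice, and its groups overlapped with and without KI 21 and WT 20. It differed by 0.45 ± 0.12 with all mice and by 0.58 with array weights (limma adjusted p 0.721 and 0.0334), and was not called without both at 0.52 ± 0.14 (adjusted p 0.115). Lgals3bp, a secreted glycoprotein, was 0.87 ± 0.33 with all mice and 1.48 ± 0.26 without both, and the complement gene C4b 0.44 ± 0.14 and 0.61 ± 0.14 (limma adjusted p without both 0.00595 and 0.0432).

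Microglia were the only immune cells whose markers were read as a list. Of the 19 microglia genes tested 7 were higher in KI (45.4% of all genes were), with a median of -0.02, and 0 were called in either analysis. Cx3cr1, Gpr34 and P2ry12, receptors of resting microglia, were at -0.56 ± 0.21, -0.48 ± 0.21 and -0.36 ± 0.22 with all mice (limma adjusted p 0.899, 0.956 and 0.999). Without KI 21 and WT 20 they were at -0.81 ± 0.20, -0.80 ± 0.19 and -0.57 ± 0.22 (limma adjusted p 0.083, 0.0566 and 0.42).

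Rtp4, Irgm1 and Eif2ak2, given above, are induced by interferon but were not on the list. Some other higher genes outside the list had other roles. Adm, the vasodilator peptide adrenomedullin, was at 0.81, 1.14, 0.67, -0.28, 0.93 and 0.31 in KI and -0.75, 0.26, -0.05, -0.04 and -0.29 in WT, with only KI 21 below the highest WT mouse. Its difference was 0.77 ± 0.20 with all mice (limma adjusted p 0.61), 1.06 ± 0.18 without both (adjusted p 0.00596) and 0.94 with array weights (adjusted p 0.0277). Pla2g5, a secreted phospholipase A2, was 0.98 ± 0.35 with all mice and 1.53 ± 0.30 without both, and Enpep, the aminopeptidase that cleaves angiotensin II, 0.47 ± 0.21 and 0.86 ± 0.15 (limma adjusted p without both 0.0149 and 0.00619). Mlkl, the effector of necroptosis, had the smallest p of the higher genes with all mice, at 0.43 ± 0.09 (unadjusted p 6.77e-05, limma adjusted p 0.477). Its level was 0.13, 0.08, 0.22, -0.11, 0.15 and 0.00 in KI and -0.40, -0.04, -0.75, -0.29 and -0.25 in WT, where KI 21 alone of the KI mice lay below WT 20. Dkk3, of the Dickkopf family of Wnt modulators, came next at 0.60 ± 0.13. Both Mlkl and Dkk3 passed with array weights (limma adjusted p 0.035 and 0.0334) and without both mice (limma adjusted p 0.00476 and 0.00595). Cirbp, a cold-inducible RNA-binding protein, was 0.55 ± 0.15 with all mice, 0.76 ± 0.14 without both and 0.66 with array weights (limma adjusted p 0.753, 0.0135 and 0.0334).

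Of the other 10 higher genes with the smallest p over all mice, Gosr1, Tpbg, Myct1, Il17b, Slfn9, Tmem71, BC051142, Ftsj3 and Nsd1 lay between 0.34 and 0.67, and none was called with all mice, like Adm above. Without KI 21 and WT 20, Myct1, Il17b, BC051142 and Nsd1 were called, and Gosr1, Tpbg, Slfn9, Tmem71 and Ftsj3 were not. Slfn9 and Tmem71 were higher in every KI mouse than in every WT mouse as labelled, at 0.49 ± 0.13 and 0.34 ± 0.09 (limma adjusted p 0.61 and 0.61). Over all probes 63 were higher without overlap (0.179%) and 85 lower (0.242%). In each direction 1 of the 462 arrangements of the mice gives such a split, a share of 0.00216. The counts over all probes lie near that share, and Slfn9 and Tmem71 were picked for their small p. Slfn9 and Tmem71 are dim, as are Il17b and Tpbg, which were well above background in 1 and 2 WT mice. Slfn9 was well above background in 4 KI mice and 1 WT mouse, and the Tmem71 probe in 4 KI mice and 2 WT mice. Slfn9 belongs to the Schlafen family, several of whose members respond to interferon.

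**Figure D4:**
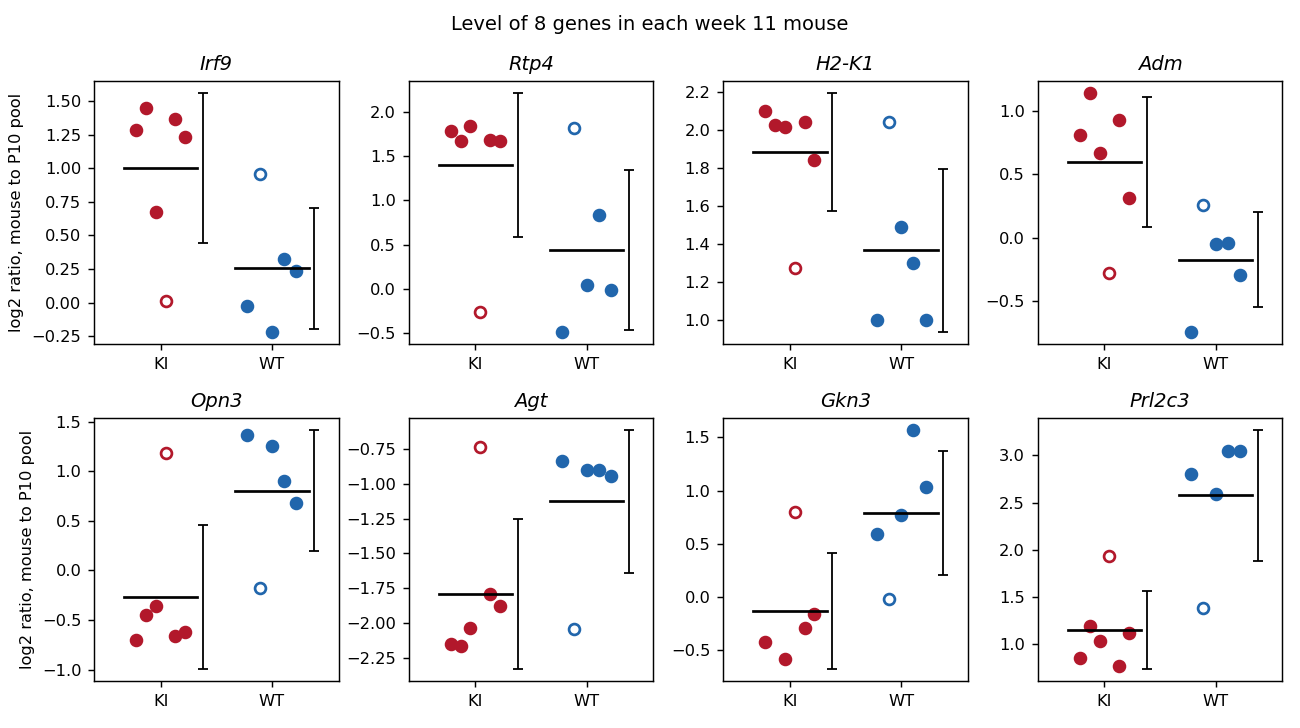
Log2 ratio to the P10 pool (vertical axis) of 8 genes in each week 11 mouse; red is KI, blue WT, open circles are KI 21 and WT 20, the bar is the mean of all mice of the group and the error bar its SD. In the upper row (Irf9, Rtp4, H2-K1 and Adm) KI 21 lies below all other KI mice and WT 20 above all other WT mice, and in the lower row (Opn3, Agt, Gkn3 and Prl2c3) KI 21 lies above and WT 20 below the rest of its group.

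The 74 lower genes had varied roles. Opn3, the non-visual opsin encephalopsin, had the smallest adjusted p without both mice. Its probe lies at bases 175628975 to 175629034 of chromosome 1 in build mm7. It stood at -0.70, -0.45, -0.36, 1.18, -0.66 and -0.62 in KI and 1.37, -0.18, 1.25, 0.90 and 0.68 in WT, so that 5 KI mice were at -0.36 or below, 4 WT mice at 0.68 or above, and KI 21 and WT 20 on the opposite sides. Its difference was -1.07 ± 0.27 with all mice (limma adjusted p 0.598), -1.61 ± 0.18 without both (adjusted p 6.25e-05), -1.27 with array weights (adjusted p 0.0277) and -0.94 with slide as a block (adjusted p 0.443). The Opn3 difference was 0.55 at P22 and -0.05 at P10. The change since P22 was -2.17 without both mice (limma adjusted p 0.000262) and -1.63 with all mice (adjusted p 0.786).

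Agt, the angiotensinogen that astrocytes secrete in the brain, overlapped between the groups as labelled and split the mice only with KI 21 and WT 20 on the opposite sides. Agt was named because it was called without these mice, which favours such a pattern. Its log2 ratios were -2.15, -2.16, -2.03, -0.74, -1.79 and -1.88 in KI and -0.84, -2.04, -0.90, -0.90 and -0.95 in WT, which left 5 KI mice and WT 20 at -1.79 or below and 4 WT mice and KI 21 at -0.95 or above. The difference was -0.67 ± 0.22 with all mice and -1.11 ± 0.15 without both (limma adjusted p 0.839 and 0.000715). Il33, a cytokine released from the nuclei of glia, was at -1.27, -1.14, -0.97, 0.28, -0.77 and -1.38 in KI and 0.42, -0.86, -0.06, 0.07 and 0.40 in WT, a difference of -0.87 ± 0.28 with all mice, -1.31 ± 0.24 without both (limma adjusted p 0.00954) and -1.08 with array weights (adjusted p 0.0427). Slc38a5, a glutamine transporter, differed by -0.72 ± 0.24, -1.13 ± 0.20 and -1.09 in the same 3 analyses (limma adjusted p 0.839, 0.00609 and 0.0315), and by -0.40 with slide blocked (adjusted p 0.791). Padi2, an arginine deiminase of oligodendrocytes, was -0.92 ± 0.31 with all mice and -1.38 ± 0.28 without both, and the gap junction gene Gjb2 -0.64 ± 0.23 and -0.996 ± 0.206 (limma adjusted p without both 0.0197 and 0.0227). Grik1, a kainate receptor subunit, was -0.66 ± 0.20 with all mice, -0.93 ± 0.16 without both and -0.87 with array weights (limma adjusted p 0.808, 0.00609 and 0.0277).

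Some genes of vessels, named after their values were seen, were among the lower ones. Gkn3, which marks arterial endothelium in the brain, was measured in 5 KI mice, at -0.42, -0.59, 0.80, -0.30 and -0.16, where KI 16 had no usable spot, and at 0.59, -0.02, 0.77, 1.57 and 1.04 in the WT mice. Its difference was -0.92 ± 0.23 with all mice, -1.36 ± 0.18 without both (limma adjusted p 0.000729) and -1.10 with array weights (adjusted p 0.0338). Slco1a4 and Slc22a8, organic anion transporters of the blood-brain barrier, were -0.51 ± 0.17 and -0.46 ± 0.17 with all mice (limma adjusted p 0.848 and 0.899) and -0.73 ± 0.16 and -0.72 ± 0.15 without both (adjusted p 0.0342 and 0.0227). Mgp, the matrix Gla protein, was -0.66 ± 0.20 with all mice and -0.95 ± 0.18 without both, and the chemokine Cxcl12 -0.71 ± 0.24 and -1.03 ± 0.23 (limma adjusted p without both 0.0104 and 0.0358). Only 1 of the 2 Cxcl12 probes had this direction. Of the 20 endothelium and pericyte genes tested, 3 were higher in KI and 17 lower with all mice (54.6% of all genes were lower), with a median of -0.17, and Slco1a4 alone of them was called without both. With all mice 1 higher and 2 lower genes of the list had an unadjusted limma p under 0.05 (1.85% and 3.34% of genes). Without both mice 2 higher and 5 lower ones had (3.14% and 6.03% of genes). Abcb1a, an efflux pump of the barrier, and Flt1, a VEGF receptor, were -0.38 ± 0.17 and -0.44 ± 0.21 with all mice (limma adjusted p 0.955 and 0.974).

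Prl2c3, of the proliferin family of prolactin-like hormones, had the largest difference of the 122 genes. Its levels were 0.85, 1.20, 1.04, 1.93, 0.77 and 1.12 in KI and 2.81, 1.38, 2.59, 3.05 and 3.05 in WT, where only KI 21 and WT 20 lay between the groups. Its difference was -1.42 ± 0.29 with all mice (unadjusted p 3.13e-05, limma adjusted p 0.367), -1.88 ± 0.26 without both (adjusted p 0.000715) and -1.55 with array weights (adjusted p 0.0277). Prl2c5 followed it at -1.39 ± 0.31, -1.77 ± 0.31 and -1.55 (limma adjusted p 0.541, 0.00642 and 0.0277). The genes of this family are near copies of each other on chromosome 13, so these probes may read the same transcripts. Serpinb1a, an inhibitor of neutrophil proteases with close copies of its own, was -0.87 ± 0.22 with all mice and -1.22 ± 0.17 without both (limma adjusted p 0.594 and 0.000715). Srl, the calcium-binding protein sarcalumenin, was -0.59 ± 0.21 with all mice and -0.99 ± 0.13 without both, Prr18 -0.85 ± 0.26 and -1.28 ± 0.20, and Lgi4, a secreted protein of glia, -0.51 ± 0.20 and -0.85 ± 0.17 (limma adjusted p without both 0.000715, 0.00376 and 0.0197). Ch25h, which makes 25-hydroxycholesterol, was at -0.77 ± 0.21 with all mice and -1.03 ± 0.20 without both (limma adjusted p 0.64 and 0.0133). Igfbp5, which binds insulin-like growth factors and had no usable spot in 1 KI mouse, was at -0.56 ± 0.31 with all mice, -1.05 ± 0.22 without both and -0.25 with slide blocked (limma adjusted p 0.999, 0.0401 and 0.892).

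Among the 12 lower genes with the smallest p over all mice were Mela, at -0.63 ± 0.12 (unadjusted p 2.45e-05, limma adjusted p 0.367), and Slco1a5, another organic anion transporter, at -0.43 ± 0.10 (adjusted p 0.541). Mela was called with array weights at -0.76 (limma adjusted p 0.00487), but KI 22 and WT 23 on slide 5 stood at 1.11 and 1.10. Xdh, the xanthine dehydrogenase of purine breakdown, Yipf7, Rnf19b and Adgrv1 were lower in every KI mouse than in every WT mouse as labelled. Over all probes 85 were lower without overlap (0.242%), near the share that chance gives, and these genes were picked for their small p. Xdh was at 1.12, 0.96, 0.51, 1.05, 1.09 and 1.18 in KI and 1.75, 1.61, 1.86, 1.47 and 1.45 in WT, a difference of -0.64 ± 0.15 (limma adjusted p 0.541). The others were -0.61 ± 0.13, -0.48 ± 0.11 and -0.47 ± 0.11, with 1 of the 3 Adgrv1 probes in the opposite direction. Notum, a deacylase that inactivates Wnt proteins, Igh-VJ558, Cpsf4l and Zdhhc14 completed the 12, at -0.52 ± 0.12, -0.59 ± 0.14, -0.88 ± 0.21 and -0.39 ± 0.10, and none of the 12 was called with all mice. Without KI 21 and WT 20, Xdh, Igh-VJ558 and Adgrv1 were not called, and the rest of the 12 were.

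Genes of cholesterol synthesis were lower in KI, 23 of 24 with all mice and 24 of 24 without KI 21 and WT 20, against 54.6% and 57.1% of all genes. The median was -0.29 and -0.30, and 6 and then 10 had an unadjusted p under 0.05, all of them lower (3.34% and 6.03% of genes). None was called with all mice, and Idi1 and Cyp51 were without both. Idi1, the isomerase that makes the building block of sterols, was at -2.28, -2.29, -2.10, -1.60, -2.09 and -2.38 in KI and -1.71, -2.10, -1.49, -1.38 and -1.40 in WT, and KI 21 and WT 20 again stood on the opposite sides. Its difference was -0.51 ± 0.14 with all mice and -0.74 ± 0.12 without both (limma adjusted p 0.765 and 0.00547). Cyp51, the lanosterol demethylase, was -0.36 ± 0.15 and -0.60 ± 0.13 (limma adjusted p 0.94 and 0.0412). Fdft1, squalene synthase, and Nsdhl, a sterol dehydrogenase, were -0.34 ± 0.13 and -0.33 ± 0.13 with all mice (limma adjusted p 0.899 and 0.903), and only 1 of the 2 Fdft1 probes had this direction. On slides 5 and 7, 14 of the 24 were lower on both, where 36.5% of genes were, and the medians within slides 5, 6 and 7 were -0.19, 0.05 and -0.33. The list median stayed below 0 under each of the 12 other settings, between -0.39 and -0.19.

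Myelin genes, whose cells make much of the brain's cholesterol, were lower for 16 of 19 (54.6% of all genes were). Their median was -0.22, and -0.30 without both mice. None was called in either analysis. Ugt8a, which makes galactosylceramide, was at -0.68 ± 0.25 and Aspa, aspartoacylase, at -0.56 ± 0.22 with all mice (limma adjusted p 0.899 and 0.903). The medians within slides 5, 6 and 7 were -0.11, 0.06 and -0.59. Of the 12 oligodendrocyte precursor genes 3 were higher (45.4% of all genes were), with a median of -0.08, and 0.01 with slide as a block.

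Purkinje cell genes were lower in KI for 25 of the 27 tested (54.6% of all genes were), with a median of -0.27. An unadjusted p under 0.05 was reached by 3 of them, all lower (3.34% of genes), and by 10 of 23 without KI 21 and WT 20 (6.03% of genes), where the median was -0.45. None was called in either analysis, and the medians within slides 5, 6 and 7 were -0.44, 0.01 and -0.39. Under loess and scale normalisation the list median shrank to -0.08. Lhx5, a transcription factor of these cells, was at -0.81, -0.98, -0.69, -0.13, -1.08 and -0.78 in KI and -0.19, -0.57, -0.29, -0.08 and 0.00 in WT, a difference of -0.52 ± 0.18 with all mice and -0.73 ± 0.18 without both (limma adjusted p 0.884 and 0.0802). Stac was -0.49 ± 0.21 and -0.81 ± 0.19, and the potassium channel subunit Kcng4 -0.55 ± 0.27 and -0.65 ± 0.31 in the same order (limma adjusted p without both 0.054 and 0.565). The classic markers Pcp2, Calb1 and Pvalb were at -0.14, -0.27 and -0.21 with all mice, each with an unadjusted p above 0.6, and under loess and scale normalisation Pcp2 and Pvalb turned to 0.09 and 0.06. Scores of the list were its median over genes for each mouse, after the mean of the 11 mice was taken off each gene. They ran from -0.52 to 0.35 in KI, with KI 21 the highest, and from -0.06 to 0.36 in WT. In whole tissue fewer cells of a type and less RNA per cell cannot be told apart.

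The other neuronal lists had smaller medians. The Purkinje cell synapse list had a median of -0.17, with 15 of 20 genes lower (54.6% of all genes were), and turned to 0.04 under loess and scale normalisation. Channels of cerebellar firing were lower for 19 of 22, with a median of -0.17, and at -0.03 under that setting. Ryr1, a calcium release channel measured in 5 KI and 4 WT mice, was lower in each of these KI mice than in each of these WT mice, at -0.55 ± 0.19 (limma adjusted p 0.863). Such a split arises by chance more often in fewer mice. The calcium channel subunits Cacna2d2 and Cacna1h were -0.25 ± 0.10 and 0.39 ± 0.16, where the Cacna1h probe was well above background in only 1 KI and 1 WT mouse and Cacna2d2 was measured in 4 of the WT mice (limma adjusted p 0.94 and 0.955), and with the Cy5 channel alone they turned to 0.03 and -0.04. Gabrb2, a subunit of the GABA-A receptor, was -0.26 ± 0.11 and Grm4, a glutamate receptor of granule cell terminals, -0.54 ± 0.26 (limma adjusted p 0.955 and 0.986). The granule neuron list was at -0.09, but at 0.09 under loess and scale and at 0.01 when slide or day of scanning was blocked. Inhibitory interneuron genes had a median of -0.03, which turned to 0.02 with slide as a block, and other ataxia genes one of -0.09, and none of these was called in either analysis. Atxn1, the gene of another repeat ataxia, was -0.49 ± 0.21 (limma adjusted p 0.935), with its other probe in the opposite direction, and -0.22 with slide blocked.

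Bergmann glia and astrocyte genes were lower for 15 of 20 (54.6% of all genes were), with a median of -0.20, and -0.31 without both mice. In that second analysis 6 had an unadjusted p under 0.05, all lower (6.03% of genes). The medians within slides 5, 6 and 7 were -0.20, 0.04 and -0.20. None was called in either analysis. Glul, the glutamine synthetase of glia, was -0.67 ± 0.22 with all mice (limma adjusted p 0.848) and passed with array weights at -0.88 (adjusted p 0.0334), with KI 21 unmeasured, and with slide blocked it was -0.41 (adjusted p 0.488). The water channel Aqp4 was -0.56 ± 0.22 with all mice and -0.85 ± 0.22 without both, and Gja1, the astrocyte connexin, -0.42 ± 0.17 and -0.67 ± 0.16 (limma adjusted p without both 0.0993 and 0.0512).

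Clock genes were higher for 14 of 16 (45.4% of all genes were), with a median of 0.13. Without KI 21 and WT 20 they were higher for 12 of 16 (42.9% of genes), with a median of 0.07. The medians within slides 5, 6 and 7 were 0.21, 0.03 and 0.003. No clock gene was called with all mice or without both. Per2, a repressor of the clock, was at 1.79, 1.87, 0.66, 1.16, 2.13 and 1.27 in KI and 0.94, 1.31, 0.91, 0.49 and 0.47 in WT. It differed by 0.66 ± 0.21 with all mice and 0.84 ± 0.23 without both (limma adjusted p 0.839 and 0.132), and by 0.87 with array weights (adjusted p 0.0446). At P22 and P10 the Per2 differences were -0.83 and -0.33. Cry1, its partner, was 0.50 ± 0.23 and Tef, a clock output factor, 0.47 ± 0.21 (limma adjusted p 0.974 and 0.974), and Tef was 0.27 with slide blocked. The hour of sampling is not given in the sources used here.

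Stress and metabolism lists lay close to the whole transcriptome. The heat shock list had a median of -0.01, the unfolded protein list -0.08, oxidative phosphorylation -0.06, autophagy 0.04, p53 and apoptosis -0.03, the cell cycle 0.08, immediate early genes -0.05, the glucocorticoid response -0.02 and insulin-like growth factor genes 0.00. Of these only the unfolded protein list kept its sign under all 12 other settings. With all mice none of their genes was called, and without both Igfbp5 was the one called. The inducible chaperone Hspa1a was 0.39 ± 0.18 (limma adjusted p 0.974). Among growth factor genes the kinase gene Akt1 was 0.56 ± 0.24, and the binding proteins Igfbp4 and Igfbp3 were 0.44 ± 0.15 and -0.44 ± 0.20 (limma adjusted p 0.955, 0.871 and 0.964). Sdf2l1, an endoplasmic reticulum chaperone, Trib3 and Ddit4, both induced by stress, were -0.45 ± 0.18, -0.32 ± 0.15 and -0.48 ± 0.23 (limma adjusted p 0.903, 0.986 and 0.986). With slide blocked Hspa1a, Igfbp3 and Sdf2l1 were 0.24, -0.26 and -0.22. Lcn2, an acute phase protein that glucocorticoids also induce, was -0.87 ± 0.33, and Fkbp5, a target of the glucocorticoid receptor, 0.46 ± 0.23 (limma adjusted p 0.899 and 0.986). Optn, an autophagy receptor, and Bcl2l11, a killer of the BCL2 family, were 0.41 ± 0.18 and 0.44 ± 0.16 (limma adjusted p 0.957 and 0.899). Cox6c, a subunit of cytochrome oxidase, had usable spots in 4 KI and 3 WT mice, none of them on slide 6. It was lower in each of these KI mice than in each of these WT mice, at -0.49 ± 0.20 (limma adjusted p 0.955). With so few mice such a split arises by chance more often than with all 11, and over all probes 0.242% were lower without overlap.

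Lists of neighbouring tissue were read in each mouse. The 15 choroid plexus genes had a median difference of -0.51, with 14 lower in KI (54.6% of all genes were), and 0 called. Their scores relative to the 11-mouse mean were -0.63 to 0.50 in KI and -0.51 to 1.56 in WT, with WT 20 at 1.56 and WT 23 at 0.65. Ttr, the transthyretin of the choroid plexus, stood at 2.19 in WT 20 and 0.94 in WT 23 against -4.02 and -3.79 in WT 18 and WT 32 and -3.98 to -1.64 in the 5 KI mice with a usable spot. Brainstem and deep nuclei genes had a median of -0.06, with WT 20 at 0.66 and KI 21 at 0.56 and the other mice between -0.33 and 0.20. The part of this tissue in the difference was not tested. Within slides 5, 6 and 7 the choroid plexus medians were -1.16, -0.40 and -0.18, beside interferon response medians of 0.77, -0.07 and 0.43. Medians were 0.04 for forebrain, -0.20 for meninges, -0.17 for endothelium and -0.08 for erythrocyte genes (the forebrain and erythrocyte medians changed sign under other settings), and 0 genes of the forebrain, meninges and erythrocyte lists were called.

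**Figure D5:**
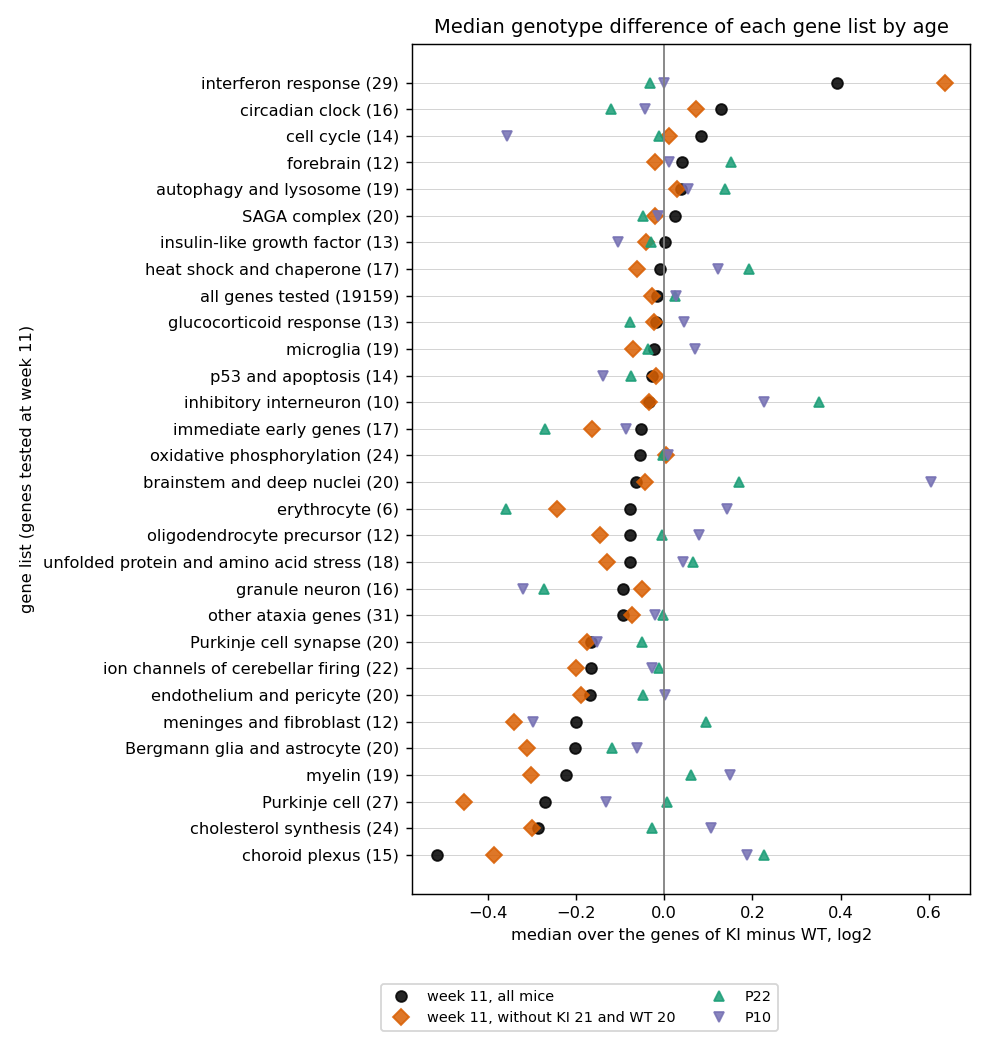
Median over the genes of each list of the KI minus WT difference (horizontal axis, log2) at week 11 with all mice (circles), at week 11 without KI 21 and WT 20 (diamonds), at P22 (triangles up) and at P10 (triangles down); numbers of genes tested at week 11 are in parentheses. The interferon response list stands at 0.39 and 0.64 at week 11 and near 0 at both younger ages.

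The interferon response list had medians of -0.03 at P22, with 12 of 28 genes higher in KI, and 0.00 at P10, with 14 of 28. Whether a difference had changed since an earlier age was tested as the change of KI minus WT between ages, over different mice that share the Cy3 pool. With all mice 0 of 33116 probes were called for the change since P22 and 0 of 34581 since P10, and unadjusted p under 0.05 was reached by 5.58% and 6.04%. Blocking on slide gave 1000 calls for the change since P22 and 0 for that since P10, and blocking on the day of scanning gave 342 and 0. After blocking on slide the difference at P22 rests on the 1 KI and 1 WT mouse of that age that shared slide 5, so these counts compare few mice. Without KI 21 and WT 20, 5 probes had changed since P22 (0.0152%) and 1 since P10 (0.00292%). They were Opn3 at both ages and, since P22, Eif2ak2 at 0.98, Serpinb1a at -1.40, Arhgap20 at -0.95 and a probe without a gene name at -1.01 (limma adjusted p 0.0456, 0.0384, 0.0384 and 0.00442). For Irf9 and Irf7 the week 11 difference exceeded that at P22 by 1.18 and 1.55 without both mice and did not pass (limma adjusted p 0.0681 and 0.0906). No gene of the interferon response list passed this test for either age, so a difference between the ages was not shown for it. Eif2ak2 is itself induced by interferon but was not on that list.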

How the data were processed

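Each array was scanned and extracted with Agilent Feature Extraction 9.5.3.1, per the file headers, and the authors deposited the red (Cy5, mouse) and green (Cy3, P10 pool) intensity of 45018 spots with 0 or 1 flags for quality. From these intensities the background was corrected by normexp (offset 50) and each array loess-normalised in limma 3.58.1 (R 4.3.3), without the 1639 control spots in the loess fit. Spots of each of 41174 probes were averaged and tested as log2 ratios. limma fitted 6 group means over all 30 arrays. A probe needed Cy5 well above background on 4 arrays and 3 usable arrays in each group compared, and p-values are two-sided. A gene was read by its brightest probe in list counts and by the probe with the smallest p where it is named alone. The script was tested on simulated data.

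The value table that the authors deposited on a log2 scale holds 1905 rows, of which 1715 matched a probe. Its columns, with medians from 0.07 to 1.14, correlated with the log2 ratios at -0.99986 to -0.985, so it was turned in sign and used as an alternative; the reason for its direction is unknown. 0 of its columns belong to no sample.

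Gene names came from RefSeq through accessions for 23075 probes and symbols for 9659; 1999 kept the name of the array design and 6441 have none. Array coordinates are in build mm7. The mice, gene lists and tests were chosen with earlier results of these data known. Named genes were the targeted gene, the 12 higher and 12 lower genes with the smallest p, list members that passed and the 3 of a list with the smallest p, shown where they add to a result. Genes called without KI 21 and WT 20 were named after their values were seen, as were Isg15, Ttr, Pcp2, Calb1 and Pvalb. Alternatives were another background correction, normalisation, channel, filter, slide or scan day as a block, array weights and each mouse left out. Leaving out KI 21 and WT 20 together was chosen after seeing the data. Values of 2 genes are not reported here on their own.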

Additional observations from a re-analysis of the deposited data

Results flagged for a closer look

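In 37 of the 276 groups of mice looked at, 1 mouse lay apart from the others of its group. Each value below is the gap between that mouse and its nearest neighbour as a share of the range of its group. Such a gap arises by chance in about 1 in 20 groups chosen without regard to the values. That rate does not hold here, since many of these genes were named because they were called once KI 21 and WT 20 were left out, which favours genes in which these mice stand apart, and genes are not independent. KI 21 stood apart in 23 of the 37, WT 20 in 5 and another mouse in 9.

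KI 21 was the lowest KI mouse for genes that were higher in the rest of its group. The gap was 0.687 of the range for H2-K1, 0.737 for Ifit1, 0.789 for Oasl2 and 0.769 for Ifi27. It was 0.916 for Rtp4, 0.761 for Lgals3bp, 0.639 for Enpep and 0.709 for the score of the interferon response list. KI 21 was the highest KI mouse for genes that were lower in the rest. The gap was 0.818 for Opn3, 0.737 for Agt, 0.635 for Prl2c3, 0.631 for Il33, 0.755 for Padi2 and 0.811 for Srl. For the transporters it was 0.682 for Slco1a4 and 0.772 for Slc22a8. For Igfbp5 it was 0.711, for Stac 0.654, for the connexin Gja1 0.733, for Aspa 0.641 and for Cyp51 0.88. The scores of the microglia list, at 0.648, and of the insulin-like growth factor list, at 0.735, were also highest in KI 21.

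WT 20 was the lowest WT mouse for Agt, with a gap of 0.91 of the range, for Serpinb1a at 0.734, for Prl2c3 at 0.725 and for Cyp51 at 0.715. It had the highest score of the brainstem and deep nuclei list, with a gap of 0.791.

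The other gaps were spread over 6 mice. KI 19 was lowest for Xdh at 0.667, Adgrv1 at 0.744 and the glucocorticoid response list at 0.634. KI 34 was highest for Ddit4 at 0.809 and Taf10 at 0.693. KI 15 was lowest for Gabrb2 and KI 22 for Fkbp5, each at 0.672. WT 23 was lowest for Tmem71 at 0.741 and WT 33 for Atxn1 at 0.772. The origin of these gaps was not tested.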

How the results depend on the processing

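No paired analysis was possible because each mouse number occurs once and the groups share none. At week 11, 0 probes were called without background subtraction, with median centring, loess and scale, the Cy5 channel alone, no or a stricter detection filter, only the week 11 arrays, a block for slide or for scan day, and in the deposited value table (1713 probes). Array weights gave 74 calls, leaving out KI 21 and WT 20 together 147, and leaving out 1 mouse between 0 and 16. For the change since P22 the counts were 28 with array weights, 1000 and 342 after blocking on slide and on scan day, 5 without both mice and 0 to 2 without 1 mouse; for that since P10 there was 1 without both mice. Among genes of the lists 3 were called with array weights and 13 without both mice. List medians moved with median centring to -0.12 for heat shock, -0.19 for oxidative phosphorylation and -0.056 for autophagy. With loess and scale they moved to 0.039 for the Purkinje cell synapse, -0.025 for channels and 0.093 for granule neurons, and with Cy5 alone to -0.18 for the cell cycle. The granule neuron median was 0.0068 when blocked on slide and 0.0077 when blocked on scan day. The autophagy median without 1 mouse ran from -0.050 to 0.059. Atxn7 turned to 0.062 with array weights. Pcp2 turned to 0.095 with loess and scale and 0.13 with Cy5 alone and ran from -0.32 to 0.039 without 1 mouse, Pvalb turned to 0.060 with loess and scale, and with Cy5 alone Cacna2d2 turned to 0.026 and Cacna1h to -0.043. The causes were not tested. Of the other values of named genes under alternatives, 97 passed the threshold that they missed with all mice, and 2262 kept their direction and side of it. Of the 97, 54 came from leaving out KI 21 and WT 20 together, by which many of these genes were chosen, so they give no independent support. The fit on week 11 arrays alone has no value for changes between ages. Signal well above background was lacking on 3 or more of the 11 arrays for Slfn9, Tmem71, Il17b, Tpbg, Ddx58, Bcl2l11 and Cacna1h, and the number of mice limits the precision of every value.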
